A study of Mus musculus with 11 samples.

Results

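The comparison is between the astrocyte-medium and neuron-medium cultures of a mouse neural stem cell experiment, measured by RNA sequencing on the same day of differentiation, day 4. It covers the genes listed at 1 CPM (reads of a gene scaled to a common library total, not adjusted for gene length) or more in at least 2 of the 6 libraries, 12944 of the 37991 genes in the deposited table. All cultures began as neural stem cells from the frontal cortex of E14.5 C57BL/6J mouse embryos, plated on flasks coated with PDL and LMN. The 3 Astrocyte libraries came from DMEM with 1% N-2 supplement, 1% fetal bovine serum (FBS) and 2 mM GlutaMAX. The 3 Neuron libraries came from Neurobasal with B-27 at 2% and the same GlutaMAX. In both groups the medium was changed every 48 h. The basal medium, the supplement and the serum all differ between the groups, so their parts in any difference cannot be told apart. The labels name no genetic change in either group. Values of the 3 undifferentiated day 0 libraries (NSC) are given for orientation. So are those of the 2 Oligodendrocyte libraries, which had the neuron medium with 30 ng/mL T3 added. Both sets also entered the fit behind the p-values, which took its estimate of the spread from all 11 libraries.

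Neural stem cells of the embryonic cortex make neurons, astrocytes and oligodendrocytes, and serum, growth factors and hormones in the medium shift the balance between them. Serum carries lipoproteins, adhesion proteins and agonists of growth factor receptors, and it acts in part through the transcription factors SRF and YAP. B-27 is a serum-free supplement built for neurons that supplies, among others, antioxidants, a retinoid, corticosterone and T3. N-2 is a simpler supplement with transferrin, insulin, progesterone, putrescine and selenium.

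The group names stand for the medium and not for a pure cell type. In the Neuron libraries Gfap, the intermediate filament gene of astrocytes, was listed at 2449, 2828 and 2663 CPM, and Cnp, the myelin nucleotide phosphodiesterase gene, at 849, 842 and 886 CPM. In the same libraries Rbfox3, which encodes the mature neuron antigen NeuN, was at 2.8, 1.65 and 2.57 CPM. In the Astrocyte libraries Gfap was at 8707, 7157 and 7029.9 CPM, Cnp at 276, 236 and 268 CPM and Rbfox3 at 1.16, 1.04 and 1.06 CPM. RNA of astrocytes and of the oligodendrocyte lineage was thus abundant in both groups, and NeuN RNA was low in both. Rbfox3 does not stand for all neuronal RNA. Dcx, a gene of young neurons, had means of 125 CPM in Astrocyte and 148 CPM in Neuron against 1.6 CPM at day 0. Stmn2, another gene of young neurons, had means of 0.807 and 0.417 CPM. In bulk RNA, fewer cells of a type and less RNA per cell cannot be told apart.

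The step between listed values gives an estimated depth of 59200000 to 66100000 reads in the Astrocyte libraries and 49300000 to 61400000 reads in the Neuron libraries. The mitochondrial genome's own genes summed to 9.36% ± 0.938 (SD, n = 3) of the listed CPM in Astrocyte and to 9.75% ± 1.46 (SD, n = 3) in Neuron, with an exact two-sided permutation p of 0.8, where 0.1 is the smallest p that 3 against 3 allows. Neuron 2 had the highest share of the 6, 11.42%, and it was also the lowest Neuron library for Sox10, Pdgfra, Gpr17 and Kcna2 below; its part in those values was not tested. The design text calls the replicates biological without saying how cultures were shared. If they came from the same embryos, the p-values cover only the spread between these cultures.

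Most genes differed between the media, mostly by small amounts. In a limma fit on log2(CPM + 1), 8189 of the 12944 genes (63.3%) passed an adjusted p of 0.05. Of these, 5302 (41.0%) were higher in Astrocyte and 2887 (22.3%) were lower. The 3 Astrocyte libraries did not overlap the 3 Neuron libraries for 8255 genes (63.8%). The median absolute difference of the called genes was 0.49 on the log2 scale. A difference of at least 2-fold on this scale, together with the adjusted p, was reached by 1246 genes (9.63%), with 852 higher (6.58%) and 394 lower (3.04%). At 4-fold or more there were 126 higher and 43 lower genes, at 8-fold 19 and 5, and at 16-fold 3 and 0. The share called rose from 58.2% of genes under 3 CPM to 75.1% of those at 300 CPM or more.

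The excess of higher genes depended on the scale of the libraries. The listed genes summed to 79.72 to 80.01% of the CPM scale in Astrocyte and 76.11 to 78.01% in Neuron. The part of that difference in the excess was not tested. The median log2 difference over all members was 0.11, and it moved to 0.01 with median-of-ratios scaling and to -0.01 with quantile normalization. The higher genes made up 64.7% of the calls on the CPM as deposited, 51.9% with median-of-ratios scaling and 48.9% with quantile normalization. At 2-fold these shares were 68.4%, 58.3% and 53.6%. Differences of about 0.1 are therefore read against that shift, and the larger ones below exceed it. Below, "rose" and "fell" describe Astrocyte relative to Neuron and are used of called genes. Just inside the membership rule, 105 genes had their second highest library at 1.0 to 1.1 CPM, and just outside it 158 genes had theirs at 0.9 to 0.99 CPM.

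**Figure D1:**
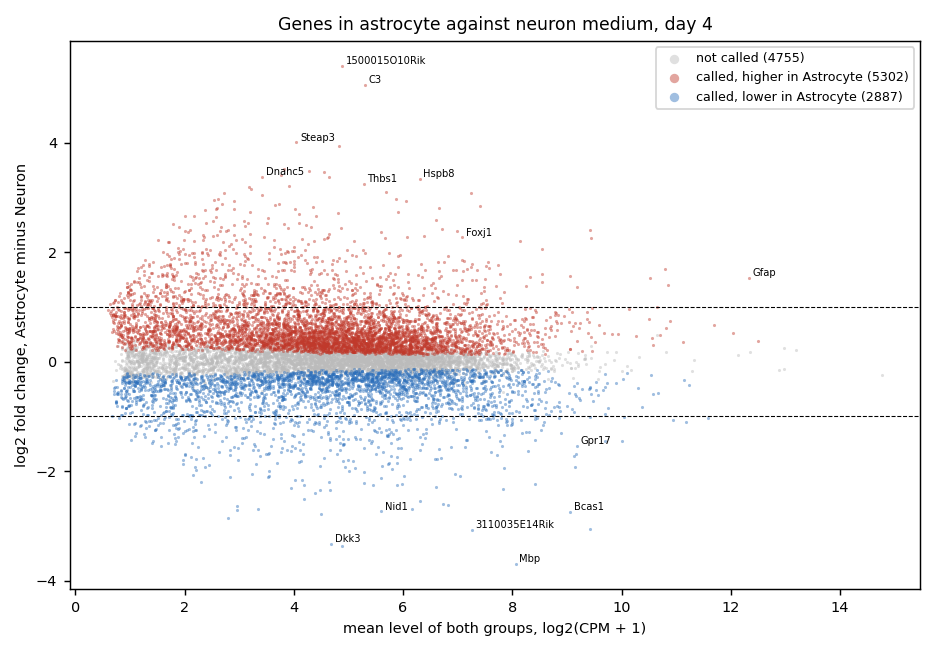
Each point is 1 of the 12944 genes, placed by its mean level in both groups (x axis, log2(CPM + 1)) and its log2 fold change, Astrocyte minus Neuron (y axis). Dashed lines mark 2-fold. Red points (5302) were called higher and blue points (2887) lower, and the largest rises, led by 1500015O10Rik and C3, exceed the largest falls, led by Mbp, in size.

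The 12 largest called differences in each direction were taken for description among the 9508 genes whose mean reached 10 CPM in either group. Only genes whose groups did not overlap were eligible, so their lack of overlap follows from the choice. 1500015O10Rik, which encodes the secreted peptide precursor Ecrg4 (chr1:43787447-43799423, mm9), stood at 43.6, 57.2 and 69.8 CPM in the 3 Astrocyte libraries. In Neuron it stood at 0.2, 0.43 and 0.41 CPM, a difference of 5.40 ± 0.15 (SE) on the log2 scale with adjusted p = 3.05e-11. Its day 0 mean was 4.55 CPM, so the Astrocyte libraries were above and the Neuron libraries below the starting cells. C3, the central complement component (chr17:57343393-57367559, mm9), was at 66.8, 88.97 and 72.1 CPM in Astrocyte. It was at 1.26, 1.5 and 1.19 CPM in Neuron, a difference of 5.05 ± 0.11 (SE), adjusted p = 4.05e-12. In both genes the 3 Astrocyte libraries lay far above the 3 Neuron libraries, with no overlap. They and Steap3 were the 3 genes past 16-fold on the log2(CPM + 1) scale, which understates the change of genes near 0.

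Steap3, an endosomal ferrireductase that serves iron uptake through transferrin, was at 27.1, 29.5 and 33.8 CPM in Astrocyte and 0.85, 0.98 and 0.98 CPM in Neuron. Bmp6, a ligand of the BMP family, was at 22.0, 23.4 and 25.8 CPM against 1.14, 1.28 and 1.59 CPM, with 0.05 CPM at day 0. Thbs1, the matrix glycoprotein thrombospondin-1, was at 66.7, 64.9 and 76.3 CPM against 4.99, 7.61 and 6.72 CPM. For these 3 genes no library of one group reached the other, and the log2 differences were 4.00, 3.41 and 3.25. Acta2, smooth muscle actin (chr19:34315580-34329826, mm9), was at 39.5, 39.1 and 47.5 CPM in Astrocyte and 2.27, 3.38 and 3.16 CPM in Neuron. Its difference was 3.46 ± 0.13 (SE), adjusted p = 3.01e-10, and the Neuron libraries lay below the day 0 mean of 8.36 CPM. Hspb8, a small heat shock protein that works with BAG3 in clearing misfolded proteins, was at 124, 137 and 168 CPM against 13.4, 14.8 and 11.4 CPM.

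Epithelial and ciliary genes were also among the 12 rises. Cldn19, a tight junction claudin, was at 27.1, 39.0 and 37.5 CPM in Astrocyte and 2.37, 1.86 and 2.25 CPM in Neuron. Crb2, an apical polarity protein of the Crumbs family, was at 41.8, 42.5 and 49.9 CPM against 3.06, 3.61 and 3.61 CPM. Dnahc5, a heavy chain of the outer dynein arm of motile cilia, was at 19.6, 18.9 and 17.1 CPM against 1.01, 0.77 and 0.86 CPM. The 3 log2 differences were 3.48, 3.37 and 3.38, and in all 3 genes the groups did not overlap. Tfcp2l1, a transcription factor known from kidney epithelium and pluripotent cells, had Astrocyte and Neuron means of 24.95 ± 4.35 and 1.24 ± 0.0693 CPM (SD, n = 3). Rassf4, a Ras-association domain protein, had means of 52.1 ± 1.495 and 2.49 ± 0.414 CPM (SD, n = 3). For all 12 rises the Oligodendrocyte mean lay above the Neuron mean. For Tfcp2l1 and Thbs1 it also lay above the Astrocyte mean, at 95.4 and 97.8 CPM, and for the other rises below it.

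Myelin genes were among the falls. Mbp, myelin basic protein, was at 46.99, 37.4 and 30.0 CPM in Astrocyte and 522, 456 and 507 CPM in Neuron. Its log2 difference was -3.69 ± 0.14 (SE) with adjusted p = 3.07e-10. Mag, an adhesion protein of the inner myelin surface, was at 5.29, 4.46 and 4.34 CPM against 36.4, 39.0 and 39.4 CPM. Bcas1, a protein of early myelinating oligodendrocytes, was at 164, 118 and 132 CPM against 963, 848 and 961 CPM, and Cldn11, the claudin of myelin tight junctions, at 23.2, 15.95 and 16.3 CPM against 119, 123 and 126 CPM. These 4 genes were above their day 0 means in every library of both groups, the means being 1.71 CPM for Mbp, 0.0133 for Mag, 21.3 for Bcas1 and 2.21 for Cldn11.

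Among the other falls, Dusp26, a dual-specificity phosphatase of neural tissue (chr8:32199943-32207519, mm9), was at 5.47, 3.52 and 3.8 CPM in Astrocyte and 50.5, 53.7 and 53.4 CPM in Neuron. Its log2 difference was -3.36 ± 0.12 (SE), adjusted p = 1.07e-10. Dkk3, a secreted protein of the Dickkopf family, was at 3.68, 3.39 and 3.98 CPM against 44.2, 43.8 and 49.6 CPM. The Neuron libraries stood apart from all others for Dkk3, with means of 0.46 CPM at day 0 and 0.885 CPM in Oligodendrocyte. Nid1, the basement membrane protein nidogen-1, was at 11.4, 11.2 and 12.4 CPM against 86.6, 75.1 and 88.4 CPM. Day 0 and Oligodendrocyte means for Nid1 were 10.2 and 6.63 CPM, close to the Astrocyte values.

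Agxt2l1, the phosphoethanolamine lyase of brain astrocytes, was at 0.71, 0.41 and 1.0 CPM in Astrocyte and 10.5, 12.4 and 10.6 CPM in Neuron. It was listed at 0 CPM in the day 0 libraries. The uncharacterised 3110035E14Rik had means of 31.6 ± 5.06 and 273 ± 30.2 CPM, and the solute carrier Slc35f3 1.72 ± 0.333 and 16.6 ± 2.52 CPM (SD, n = 3). None of the 24 genes lost its call or changed direction under any of the alternatives run.

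**Figure D2:**
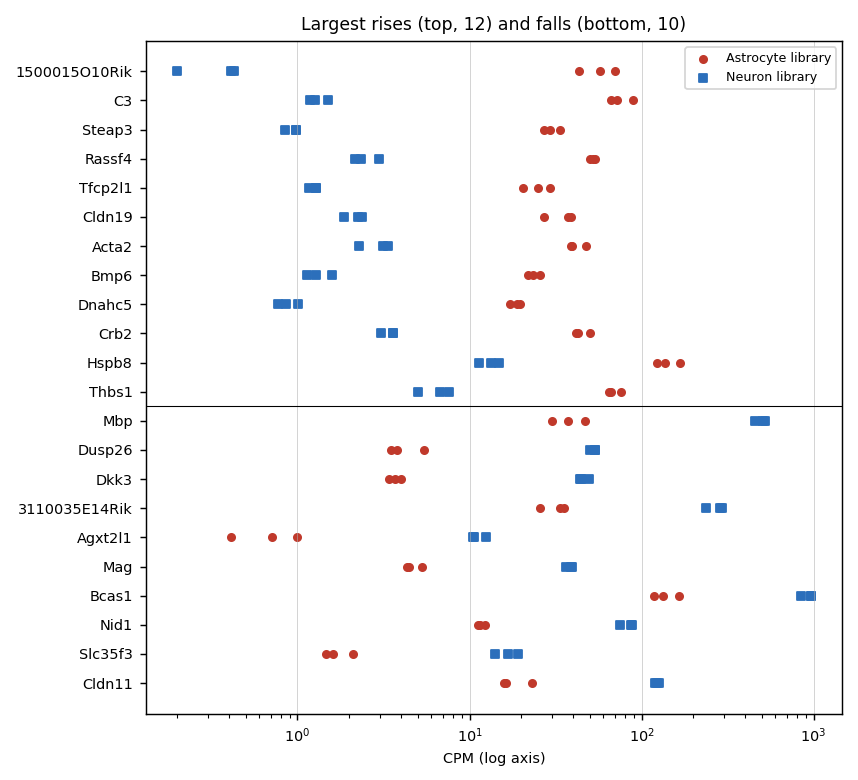
CPM on a log axis for the 12 largest rises (above the line) and 10 of the 12 largest falls (below it), with 1 red circle per Astrocyte library and 1 blue square per Neuron library. The genes were chosen so that the 3 circles and the 3 squares do not overlap. The 1500015O10Rik squares, at 0.2 to 0.43 CPM, lie farthest to the left.

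Pathways and cell types were read from 35 lists with 479 genes, of which 383 were members, 91 lay below the threshold, 3 had an ambiguous symbol and 2 were not matched. A gene can be a member through the medium in which it is high, so counts over members are descriptions, to be read against the 41.0% of all members called higher and the 22.3% called lower. Complement and reactive astrocyte genes were mostly higher in Astrocyte. Of 6 complement genes among the members, 5 rose and 1 fell, with a median log2 difference of 1.39 against 0.11 for all members. Serping1, the C1 inhibitor, was at 8.42, 9.01 and 11.3 CPM in Astrocyte and 1.62, 2.25 and 1.63 CPM in Neuron, a difference of 1.90. Cd59a, which blocks the membrane attack complex, was at 3.97, 4.32 and 5.23 CPM against 0.49, 0.49 and 0.44 CPM. The proteases C1s and C1ra, which start the classical pathway, rose by 0.53 and 0.89. C4b, the complement component cleaved by C1s, went the other way. It was at 112, 95.1 and 114 CPM in Astrocyte and 257, 244 and 273 CPM in Neuron, a difference of -1.27 ± 0.077 (SE), adjusted p = 1.5e-08. C4b made most of the Neuron sum of the complement list. That summed level was lower in Astrocyte, at 196 to 210 CPM, than in Neuron, at 251 to 280 CPM. The other 8 complement genes on the list were below the membership threshold. Among them Cfb, C3ar1 and C5ar1 did not exceed 0.04 CPM in any of the 6 libraries.

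Of 13 genes that astrocytes raise on injury or inflammation, 10 rose, 1 fell and 2 were not called (median 1.06). The other 3 of the 16 listed, Lcn2, Hspb1 and Cxcl10, were below the membership threshold. Lcn2 had means of 0.327 CPM in Astrocyte and 0.333 CPM in Neuron. Tm4sf1, a tetraspanin-like surface protein, was at 23.3, 19.97 and 25.98 CPM in Astrocyte and 2.37, 4.79 and 2.72 CPM in Neuron, a difference of 2.52. S1pr3, a receptor of sphingosine-1-phosphate, was at 185, 179 and 169.7 CPM against 40.6, 51.3 and 46.6 CPM. Serpina3n, a secreted protease inhibitor, was at 32.96, 36.4 and 29.4 CPM against 7.43, 9.37 and 7.18 CPM. Neither gene had overlapping groups, and the differences were 1.93 and 1.92. Vim, vimentin, was at 2503, 2648 and 2837 CPM against 873, 1173 and 988 CPM, and Cd44, the hyaluronan receptor, at 36.97, 37.4 and 36.04 CPM against 16.8, 18.9 and 17.8 CPM. Day 0 means were 1863 CPM for Vim, between the groups, and 39.97 CPM for Cd44, above both. Those of Tm4sf1, S1pr3 and Serpina3n, 1.24, 0.5 and 0.28 CPM, were below both groups. Gbp2, an interferon-induced GTPase, rose by 0.92, and Ggta1 had a difference of -0.05 with adjusted p = 0.598 and was called lower with quantile normalization. Fbln5, an elastic fibre protein, fell by 1.06.

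Markers of cells that also make complement or interferon-induced RNA were checked in the same libraries. Of 10 microglia genes only P2ry12 was a member, at 1.29, 1.25 and 0.74 CPM in Astrocyte and 0.34, 0.47 and 0.47 CPM in Neuron, and the summed level of the list ranged from 0.84 to 1.32 CPM and from 0.55 to 0.83 CPM. Cx3cr1, Tmem119, Ptprc, Itgam and C1qa did not exceed 0.04 CPM in any of the 6 libraries. Of 10 endothelial genes Kdr and Slco1a4 were members and rose by 1.62 and 1.99. The summed level was 9.19 to 11 CPM in Astrocyte and 1.54 to 2.33 CPM in Neuron, with Cdh5 and Ly6c1 at 0 in all 6 and Cldn5 at up to 0.03 CPM.

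Contractile genes and targets of SRF moved unevenly. Among 13 members 9 rose, 2 fell and 2 were not called (median 0.45), and 7 rose under either scaling alternative. Besides Acta2, only Lmod1, a leiomodin that nucleates actin filaments, passed 2-fold upwards, at 4.29, 3.3 and 3.71 CPM against 0.45, 0.83 and 0.49 CPM. Myl9, a myosin regulatory light chain, was at 32.9, 44.3 and 48.2 CPM in Astrocyte and 19.5, 22.1 and 21.4 CPM in Neuron, a difference of 0.95. Tagln, the smooth muscle protein transgelin, differed by 0.72 and Actn1, an actin crosslinker, by 0.81. Cnn2, a calponin, fell, with 15.3, 13.6 and 15.2 CPM in Astrocyte and 31.3, 34.8 and 30.7 CPM in Neuron. Srf itself had a difference of 0.04 with adjusted p = 0.66. Of 11 fibroblast and mural genes 4 were members and 1 rose, with sums of 54.8 to 56.0 CPM and 46.6 to 52.4 CPM. Pdgfrb made most of both sums, at 42.4, 41.6 and 41.7 CPM and 36.3, 34.9 and 41.5 CPM (adjusted p = 0.162), while Lum was at 0 in all 6 and Dcn at up to 0.18 CPM. The part of such cells in the contractile genes was not tested beyond these values.

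Of 8 targets of YAP and TEAD, 5 rose and 2 fell (median 0.29), with 3 rising under either scaling alternative and without Astrocyte 1 or Astrocyte 3. Cyr61, a matricellular protein, had 75.2, 54.6 and 53.04 CPM against 27.7, 35.3 and 32.2 CPM, while Amotl2, an angiomotin that holds YAP in the cytoplasm, fell by 0.84.

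Genes of motile cilia were higher in Astrocyte. The choroid plexus and ependyma list showed this in Foxj1, the forkhead factor that switches on motile ciliogenesis, at 213, 224 and 231 CPM in Astrocyte and 40.1, 53.1 and 43.98 CPM in Neuron. Its difference was 2.27 ± 0.089 (SE) with adjusted p = 3.25e-10, and all libraries of both groups lay above the day 0 mean of 17.7 CPM. After these values were seen, 3 sets were collected by gene symbol, so their counts are a description. Of 15 axonemal dynein chains among the members, 14 were called higher and 1 lower, with a median of 1.32. Of 9 genes of radial spokes and the central pair, 9 were called higher (median 1.25), and 7 under either scaling alternative. Of 32 other ciliary assembly genes and ciliary transcription factors, 31 were called higher (median 1.25).

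Dnahc9, an outer arm heavy chain, was at 20.6, 21.9 and 21.4 CPM in Astrocyte and 2.23, 1.69 and 2.31 CPM in Neuron. Dnali1, an inner arm light intermediate chain, was at 10.7, 11.6 and 11.3 CPM against 1.87, 2.31 and 2.08 CPM. The log2 differences of these genes were 2.86 and 1.99, and neither had overlapping groups. Rsph4a, a radial spoke head protein, was at 12.2, 11.8 and 12.6 CPM against 0.69, 0.73 and 0.8 CPM, and Rsph1, its partner, at 8.74, 9.98 and 12.2 CPM against 0.45, 0.49 and 0.67 CPM. Both spoke genes stayed below 1 CPM in every Neuron library. Spag6, of the central pair, was at 5.45, 5.74 and 5.87 CPM against 0.59, 0.83 and 0.81 CPM. Tekt1, a tektin of the outer doublets, was at 7.29, 8.36 and 7.82 CPM against 0.81, 1.71 and 1.01 CPM, a difference of 2.04.

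Not every ciliary gene was clearly higher. Dnaic2, an intermediate chain of the outer arm, fell slightly, with 11.6, 13.8 and 13.8 CPM in Astrocyte and 14.6, 16.1 and 15.8 CPM in Neuron (difference -0.23, adjusted p = 0.0378). That call was lost in 7 of the 15 alternatives run, namely without Astrocyte 1, Neuron 2 or Neuron 3, with the replicate block, with no filter on low values, with only the 6 libraries of both groups in the fit and with a pseudocount of 0.1. The tektins, collected by symbol in the same way, had 4 members, of which 2 were called higher, 1 lower and 1 not called. The lower one, Tekt2, fell by 0.37, at 0.85, 0.88 and 1.01 CPM against 1.64, 1.37 and 1.4 CPM. Dnahc7b, an inner arm heavy chain, had overlapping groups, 32.3, 30.3 and 25.1 CPM and 28.2, 15.8 and 22.5 CPM. Of the RFX factors, which entered the assembly and transcription factor set by symbol, Rfx2 rose by 1.18. It was at 21.4, 20.8 and 20.6 CPM against 8.85, 8.43 and 8.84 CPM. Rfx1 and Rfx4 rose by 0.65 and 0.56 without overlap. Rfx3 was called higher (difference 0.25, adjusted p = 0.0415) with overlapping groups at 164, 163 and 142 CPM and 145, 119 and 131 CPM. Rfx5 had a difference of 0.29 with adjusted p = 0.0589 and was not called.

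Of 10 choroid plexus and ependyma genes 5 were members, 4 of them rising and 1 not called, with sums of 267 to 290.0 CPM in Astrocyte and 69.3 to 91.0 CPM in Neuron. Foxj1 made most of the sum. Folr1, a folate receptor of choroid plexus, was at 9.53, 9.82 and 10.4 CPM against 2.01, 2.78 and 1.89 CPM, and Ccdc153, an ependymal gene, at 4.24, 3.66 and 5.35 CPM against 0.1, 0.23 and 0.23 CPM. Otx2, a choroid plexus factor, differed by -0.01 (adjusted p = 0.946). Ttr, the most abundant choroid plexus transcript, did not exceed 0.15 CPM, and Kl did not exceed 0.11 CPM, in any of the 6 libraries.

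RFX factors bind the X-box, searched here as GTNNCCNNNGNAAC on both strands in RefSeq promoter windows (GRCm38.p6, 250 bases before to 50 after the start), which matched 10231 members. The motif was found in 8 of 27 genes with a window in the assembly and transcription factor set (29.6%). It was found in 1 of 6 radial spoke genes and in 0 of 15 dynein genes, any window of a gene counting. Over all genes with a window its share was 2.49%, over the members 3.47%, over the genes called at least 2-fold higher 6.76% (45 of 666) and over those at least 2-fold lower 1.4% (4 of 285). The sequences below show these 9 matches on the gene's own strand, with the X-box in capitals between 8 flanking bases. All 9 genes were called higher. So were all 9 radial spoke members and 31 of the 32 in the other set, with or without a match.
Hydin: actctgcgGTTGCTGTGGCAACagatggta
Lrriq1: gattggctGTTGCCATGGCTACggtttgtt
Enkur: tagcaactGTTTCCTTAGCAACcacgtggt
Ccno: gggctgcgGTTGCCACGGTGACgacagacg
Wdr52: ggagggacGTTGCTATGGCAACcgcagtaa
Zmynd10: gctccctcGTTTCCATGGCGACgacgactc
Ttll9: ctcctttgGTTGCCGTAGCAACgagacgca
Ccdc114: ggccccttGTCTCCCCAGTAACcagactac
Pih1d2: agcttgagGTTTCCAAGGGGACgtggggga
Hydin, Lrriq1, Zmynd10, Ccno, Wdr52 and Pih1d2 hold it in reverse and Enkur, Ttll9 and Ccdc114 in forward orientation to the gene. In GRCm38.p6 the matches lie at chr8:110266956-110266969 for Hydin, chr13:112987583-112987596 for Ccno, chr16:44394772-44394785 for Wdr52, chr9:107547304-107547317 for Zmynd10, chr2:152962474-152962487 for Ttll9, chr7:45924200-45924213 for Ccdc114 and chr9:50617090-50617103 for Pih1d2, all genes of the forward strand. Lrriq1 (chr10:103236328-103236341) and Enkur (chr2:21205364-21205377) are genes of the reverse strand. The Ccno and Pih1d2 matches lie 219 to 206 and 231 to 218 bases before the start, and the other 7 within 30 bases of it. In Wdr52, a cilia-associated protein listed in RefSeq as Cfap44, the match lies 27 to 14 bases before the start, within these 250 bases (chr16:44394549-44394798, GRCm38.p6, forward strand).
Wdr52 promoter: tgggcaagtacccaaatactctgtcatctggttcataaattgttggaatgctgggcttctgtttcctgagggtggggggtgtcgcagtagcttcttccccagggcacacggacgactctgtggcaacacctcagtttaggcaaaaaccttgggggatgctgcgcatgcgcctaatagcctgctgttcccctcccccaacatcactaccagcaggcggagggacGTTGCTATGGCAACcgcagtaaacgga
Enkur, which encodes enkurin of the ciliary microtubule interior, was at 27.7, 27.3 and 28.3 CPM in Astrocyte and 5.76, 8.77 and 6.66 CPM in Neuron. Wdr52 was at 30.99, 28.02 and 25.1 CPM against 6.9, 3.12 and 6.18 CPM, Neuron 2 being the lowest. Ccno, a cyclin of basal body amplification, was at 2.1, 1.56 and 1.87 CPM against 0.45, 0.32 and 0.59 CPM, and Zmynd10, a dynein assembly factor, at 4.15, 3.02 and 3.51 CPM against 0.61, 0.62 and 0.34 CPM. None of these 4 genes had overlapping groups. Lrriq1 was at 4.03, 3.42 and 3.09 CPM against 0.55, 0.45 and 0.46 CPM. Hydin, of the central pair, differed by 1.25, Ttll9, a tubulin ligase family member, by 0.65, Pih1d2 by 1.32 and Ccdc114, a dynein docking protein, by 0.84. A match is a description of letters and not of binding.

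Genes of the oligodendrocyte lineage, from precursor to myelin, were mostly lower in Astrocyte. All 12 precursor and commitment genes fell, with a median of -1.42 against 0.11 for all members, and 9 passed 2-fold. Sox10, the lineage's master regulator, was at 26.1, 20.2 and 20.8 CPM in Astrocyte and 142, 116 and 146 CPM in Neuron, a difference of -2.54 ± 0.12 (SE), adjusted p = 1.85e-09. Zfp488, a corepressor of OLIG2 in oligodendrocytes, was at 8.24, 7.66 and 5.77 CPM against 49.9, 30.4 and 43.5 CPM. Pdgfra, the growth factor receptor of precursors, was at 85.9, 70.2 and 74.6 CPM against 232, 168 and 233 CPM. Gpr17, a receptor of committed precursors, was at 316, 272 and 289.9 CPM against 999, 639 and 950.3 CPM. In these 4 genes Neuron 2 was the lowest Neuron library and still lay above every Astrocyte library.

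Olig2 and Olig1, the basic helix-loop-helix factors of the lineage, were highest at day 0, with means of 733 and 1019 CPM. Olig2 was at 110.5, 97.96 and 105 CPM in Astrocyte and 285, 241 and 291 CPM in Neuron. Olig1 was at 235, 226 and 250.3 CPM in Astrocyte and 451, 407 and 462 CPM in Neuron. The differences were -1.37 and -0.89, with no overlap in either gene. The smallest fall of the list was that of Tcf7l2, a Wnt effector of differentiating oligodendrocytes, at -0.52.

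Of 15 myelin and mature oligodendrocyte genes, 13 fell and 2 rose (median -1.85), and 11 fell by at least 2-fold. Enpp6, a choline phosphodiesterase of newly formed oligodendrocytes, was at 35.6, 27.3 and 23.8 CPM in Astrocyte and 209.7, 135 and 199.6 CPM in Neuron, a difference of -2.60. Myrf, the transcription factor that starts myelin gene expression, was at 29.8, 20.5 and 14.6 CPM against 116, 76.4 and 116 CPM. Mobp, a later myelin protein, was at 1.15, 0.76 and 0.47 CPM against 7.06, 7.17 and 7.16 CPM; Cnp, with the values given above, differed by -1.73. In each the groups did not overlap. Mog, on the outer myelin surface, went the other way with 1.71, 1.44 and 0.81 CPM in Astrocyte and 0.37, 0.45 and 0.76 CPM in Neuron, a difference of 0.59 with adjusted p = 0.00192. The Oligodendrocyte mean of Mog was 9.595 CPM. Aspa, an N-acetylaspartate hydrolase, was called higher at 0.27 (adjusted p = 0.023), a call lost under both scaling alternatives and without Astrocyte 2, Astrocyte 3 or Neuron 1. With no filter on low values, only 1 gene of the list was called higher. For Ermn the fall of 0.23 (adjusted p = 0.0467) was lost without any single library except Neuron 1. The call was also lost with a pseudocount of 0.1, the replicate block, the filter on the 6 libraries and only these in the fit.

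**Figure D3:**
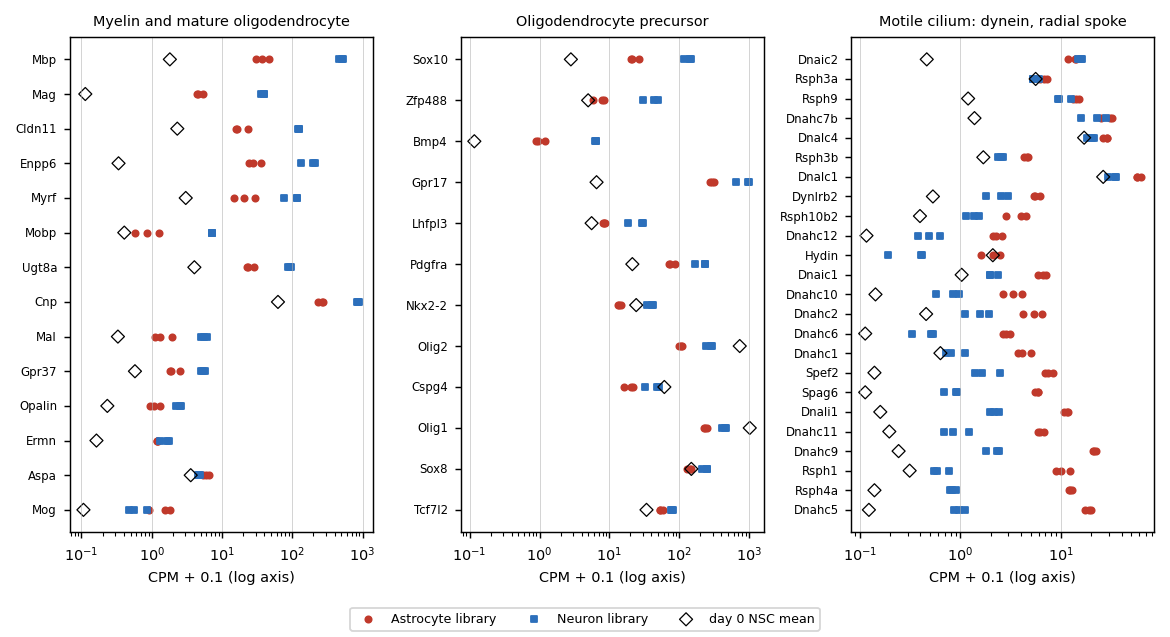
CPM + 0.1 on a log axis for each gene, with 1 red circle per Astrocyte library, 1 blue square per Neuron library and a diamond for the mean of the 3 day 0 libraries. The circles lie left of the squares for all 12 precursor genes (middle) and for the myelin genes (left) except Aspa and Mog, and right of them for the dynein and radial spoke genes (right) except Dnaic2 (left of them) and Dnahc7b (overlapping).

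Astrocyte function genes split in both directions. Among 16 members 4 rose, 10 fell and 2 were not called (median -0.32). The rises were in structural and channel genes. Gfap, with the values given above, rose by 1.52 ± 0.10 (SE), adjusted p = 2.79e-08, and Astrocyte 1 was its highest library. Aqp4, the water channel of astrocyte endfeet, was at 1444, 1444 and 1550.2 CPM in Astrocyte and 738, 806 and 745 CPM in Neuron. Gja1, connexin 43 of astrocyte gap junctions, was at 2125, 2160.2 and 2094 CPM against 1007, 1141 and 1036 CPM, and Kcnj10, the inward rectifier that clears potassium, at 94.2, 85.4 and 82.7 CPM against 45.8, 39.0 and 51.3 CPM. In these 4 genes the groups did not overlap. Most falls were in transport and metabolism. Slc1a2, the main glutamate transporter of mature astrocytes, was at 299, 271 and 239 CPM against 941, 746 and 921 CPM, a difference of -1.68. Glul, glutamine synthetase, was at 1396, 1226 and 1224 CPM against 2518, 2782 and 2716 CPM. Ndrg2 was at 663, 689 and 734 CPM against 1293, 1536 and 1387 CPM, and S100b, a calcium-binding protein, at 16.1, 14.8 and 19.1 CPM against 41.9, 40.1 and 41.6 CPM. Gjb6, connexin 30, fell by 1.15 and Aldh1l1, the folate enzyme used as an astrocyte marker, by 0.71. Sox9, a glial transcription factor, had a difference of 0.08 with adjusted p = 0.271.

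Young neuron genes fell more often than they rose, with 7 of 10 lower, 1 higher and 2 not called (median -0.51). Syt1, the synaptic calcium sensor, was at 3.58, 3.2 and 3.75 CPM in Astrocyte and 12.4, 8.0 and 12.8 CPM in Neuron. Elavl3, a neuronal RNA-binding protein, was at 46.3, 42.9 and 44.1 CPM against 97.6, 78.6 and 96.7 CPM, a difference of -1.01. Dcx, the microtubule protein of migrating neurons, had overlapping groups of 113, 119.7 and 141 CPM and 177, 106 and 160.2 CPM. Its adjusted p was 0.256, and it was called lower without Neuron 2. Tubb3, the neuronal tubulin, was the gene called higher, at 30.2, 36.9 and 56.4 CPM against 30.5, 24.9 and 29.96 CPM (difference 0.48, adjusted p = 0.0284). That call rested on Astrocyte 3 and Neuron 2, being lost without either. It was also lost under both scaling alternatives, with no filter on low values and with only the 6 libraries in the fit.

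Genes of ventral interneurons went the other way. Of 11, 9 rose and 2 fell (median 0.68). Calb2, calretinin, was at 18.2, 22.1 and 31.5 CPM in Astrocyte and 6.64, 5.0 and 6.66 CPM in Neuron, a difference of 1.79 with adjusted p = 5.14e-07. Dlx1, a homeobox factor of ventral progenitors, was at 40.9, 40.9 and 54.5 CPM in Astrocyte and 24.2, 20.1 and 28.4 CPM in Neuron. Its neighbour and partner Dlx2 was at 21.3, 23.3 and 29.1 CPM against 13.2, 12.3 and 14.3 CPM. The groups did not overlap in these genes. Sp8, a zinc finger factor of olfactory interneurons, rose by 0.68. Slc32a1, the vesicular GABA transporter, rose by 1.03 at low level, while Gad1, which makes GABA, fell, with 22.9, 19.7 and 25.1 CPM against 37.8, 30.01 and 38.1 CPM. Only 5 of 13 dorsal glutamatergic genes were members, of which Neurog2 and Neurod1, proneural factors, fell by 1.17 and 0.60 and 3 were not called. With median-of-ratios scaling or quantile normalization 4 of the 5 were called lower.

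Progenitor genes divided. Of 12, 4 rose, 6 fell and 2 were not called. Nes, the intermediate filament nestin, was at 189, 189 and 219 CPM in Astrocyte and 71.03, 62.5 and 77.7 CPM in Neuron, both below the day 0 mean of 1251 CPM. Prom1, an apical membrane protein shared by progenitors and ependyma, was at 40.1, 40.01 and 45.9 CPM against 10.9, 10.4 and 12 CPM, both above the day 0 mean of 3.44 CPM. Hes5 and Hes1, repressors downstream of Notch, fell by 1.58 and 0.89, and Fabp7, a radial glial lipid carrier, by 0.84.

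Cell cycle genes were low in both groups and somewhat higher in Astrocyte. Of 21, 14 rose, 1 fell and 6 were not called (median 0.51), and 11 rose with quantile normalization. Top2a, the topoisomerase of dividing cells, was at 31.5, 33.3 and 34.3 CPM in Astrocyte, 19.7, 12.8 and 20.4 CPM in Neuron and a mean of 731 CPM at day 0. Mcm2, a subunit of the replicative helicase, was at 12.9, 13.5 and 13.8 CPM against 6.66, 5.99 and 7.28 CPM, with a day 0 mean of 177 CPM. Ccnd2, a G1 cyclin, rose by 1.00, while Ccnd1 had a difference of -0.03 with adjusted p = 0.833. The inhibitor genes moved in opposite directions. Cdkn1a (p21) was at 121, 111 and 103 CPM in Astrocyte and 53.6, 59.7 and 60.3 CPM in Neuron. Cdkn1c (p57) was at 3.57, 3.04 and 3.7 CPM against 17.9, 18.7 and 16.8 CPM, a difference of -2.08 with adjusted p = 1.34e-09.

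Feedback genes of the ERK pathway and ETS factors were lower in Astrocyte. Of 13, 10 fell, 2 rose and 1 was not called (median -0.64). Etv4, an ETS factor induced by fibroblast growth factor, was at 5.52, 3.78 and 2.95 CPM in Astrocyte and 13.5, 14.4 and 14.7 CPM in Neuron. The related Etv5 was at 38.1, 31.1 and 26.3 CPM against 83.6, 81.2 and 91.2 CPM. Both groups lay below the day 0 means of 84.3 and 358 CPM. Spred1, an inhibitor of RAS signalling, was at 145, 138 and 119 CPM against 249.2, 264 and 261 CPM. Dusp6, the ERK phosphatase, fell by 0.94 and Spry4, a sprouty inhibitor, by 0.93. Dusp4, a nuclear phosphatase of ERK, rose, with 28.7, 31.2 and 30.1 CPM in Astrocyte and 10.8, 9.73 and 11.9 CPM in Neuron. Of 12 immediate early genes, 4 rose and 4 fell. Atf3, a stress-induced factor, rose by 1.56, Junb by 0.55, Egr2 fell by 1.22 and Myc by 1.06. With quantile normalization 2 rose and 6 fell.

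Lipid synthesis genes were higher in Astrocyte by modest amounts. Of 18 genes of cholesterol synthesis and uptake, 16 rose, none fell and 2 were not called (median 0.56). Sc4mol, a sterol C4 methyl oxidase, was at 252, 237 and 229.7 CPM in Astrocyte and 113, 116 and 111 CPM in Neuron, a difference of 1.08 ± 0.055 (SE), adjusted p = 3.43e-09. Sqle, squalene epoxidase, was at 198, 185 and 197 CPM against 114, 105 and 113 CPM, and Dhcr7, the last reductase of the pathway, at 73.7, 73.6 and 74.5 CPM against 40.8, 34.4 and 40.6 CPM. The day 0 means of Sc4mol, Sqle and Dhcr7, 291, 322 and 173 CPM, were above every library of both groups. Insig1 and Lss, a sterol sensor partner and lanosterol synthase, differed by 0.15 and 0.04 and were not called (adjusted p = 0.14 and 0.81).

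Of 14 fatty acid synthesis genes 12 rose, none fell and 2 were not called (median 0.47). Srebf1, which encodes the factor SREBP1, was at 222, 224 and 244 CPM in Astrocyte and 104, 105 and 122 CPM in Neuron. Gpam, which starts triglyceride synthesis, was at 734, 689.5 and 660.1 CPM against 351, 328 and 385 CPM, and Fads2, a fatty acid desaturase, at 573, 593 and 594 CPM against 328, 304 and 344 CPM. The 3 differences were 1.05, 0.97 and 0.85. Lipid transport genes and targets of the sterol receptor LXR were mixed, 4 of 9 rising and 2 falling. Pltp, a phospholipid transfer protein, rose by 1.25 and Nr1h3, which encodes LXR alpha, by 1.53. Fabp5, a fatty acid carrier, fell by 0.83. Apoe, apolipoprotein E, differed by 0.17 (adjusted p = 0.192) and was called higher without Neuron 2.

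Glycolysis and hypoxia-regulated genes were higher in Astrocyte, 11 of 14 rising, 2 falling and 1 not called (median 0.88). Slc2a1, the glucose transporter GLUT1, was at 158, 153 and 150.2 CPM in Astrocyte and 42.1, 42.1 and 44.2 CPM in Neuron, a difference of 1.82 ± 0.060 (SE), adjusted p = 6.33e-11. Pfkp, a phosphofructokinase, was at 134, 126 and 122 CPM against 38.2, 38.6 and 40.9 CPM. Hk2 and Pgk1, a hexokinase and phosphoglycerate kinase, rose by 1.23 and 1.16, and Ldha, lactate dehydrogenase, by 0.84. Adm, the peptide adrenomedullin, was at 6.76, 5.96 and 5.27 CPM against 0.59, 0.85 and 0.83 CPM. Vegfa, a hypoxia target, had overlapping groups, with a difference of -0.20 and adjusted p = 0.166, and it was called lower under both scaling alternatives and without Astrocyte 1. Bnip3 and Slc2a3, a mitophagy receptor and the neuronal glucose transporter, fell by 0.22 and 0.26, and without Astrocyte 2 neither was called.

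Interferon-induced and antigen presentation genes rose together, 13 of 15 higher, none lower and 2 not called (median 0.82). Ifit1, an RNA-binding antiviral protein, was at 6.37, 6.24 and 5.64 CPM in Astrocyte and 1.26, 1.65 and 1.95 CPM in Neuron, a difference of 1.44 ± 0.10 (SE), adjusted p = 5.22e-08. Bst2, tetherin, was at 4.68, 4.81 and 5.74 CPM against 0.77, 1.58 and 1.53 CPM. Irf7 and Isg15, an interferon regulatory factor and a ubiquitin-like modifier, rose by 1.02 and 0.94. H2-K1, a class I histocompatibility heavy chain, was at 67.6, 65.3 and 77.3 CPM against 36.02, 44.8 and 37.9 CPM. B2m, the light chain of class I, had overlapping groups of 112, 119 and 109.5 CPM and 87.1, 125 and 95.4 CPM and was called higher without Neuron 2. Nlrc5, the class I transactivator, differed by -0.01 (adjusted p = 0.948). The related H2-K1 and H2-D1 could share reads, so their split is uncertain.

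The interferon-stimulated response element, searched as GAAANNGAAA on both strands (matches may overlap), was found in 7 of the list's 13 genes with a window (53.8%). Its share was 3.99% over all genes with a window and 3.49% over the members. Among genes called at least 2-fold higher its share was 4.2%, and among those at least 2-fold lower 4.91%. The genes with a match were Ifit1, Ifit3, Isg15, Stat2, B2m, Ifitm3 and Bst2. The 2 promoters below show the 250 bases before the start on the gene's strand with the element in capitals, chosen because Ifit1 had the largest difference of the list and Isg15 the most matches.
Ifit1 promoter (chr19:34640639-34640888, GRCm38.p6, forward strand): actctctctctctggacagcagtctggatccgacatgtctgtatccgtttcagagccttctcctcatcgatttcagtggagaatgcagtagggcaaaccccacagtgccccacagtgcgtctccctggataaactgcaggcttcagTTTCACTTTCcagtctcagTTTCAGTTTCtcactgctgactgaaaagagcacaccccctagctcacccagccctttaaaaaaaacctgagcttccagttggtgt
Isg15 promoter (chr4:156200819-156201068, GRCm38.p6, reverse strand): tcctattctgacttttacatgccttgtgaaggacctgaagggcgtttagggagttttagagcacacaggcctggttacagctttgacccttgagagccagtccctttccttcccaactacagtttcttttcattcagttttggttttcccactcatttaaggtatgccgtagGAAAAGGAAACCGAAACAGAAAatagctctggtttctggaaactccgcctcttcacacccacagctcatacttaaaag
Ifit1 holds 2 separate elements in reverse orientation and Isg15 3 overlapping ones in forward orientation. B2m holds 1 and was not called. The same search found the CArG box of SRF in 4 of 12 contractile genes with a window (33.3%), namely Cnn2, Myl9, Vcl and Srf. The share of the members was 1.55%, and Cnn2 fell while Myl9 rose. The sterol regulatory element, TCACNCCAC, was in 0 of 11 cholesterol and 0 of 11 fatty acid genes with a window against 1.39% of the members. For the antioxidant response element, TGACNNNGC, the counts were 4 of 10 list genes with a window and 16.9% of the members.

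**Figure D4:**
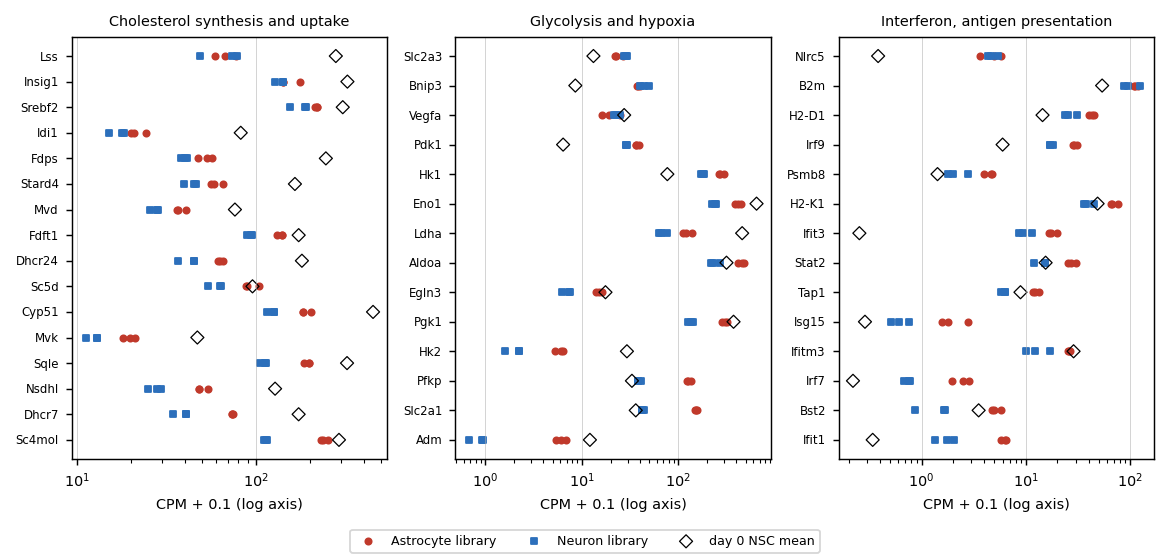
CPM + 0.1 on a log axis for genes of 3 lists, with 1 red circle per Astrocyte library, 1 blue square per Neuron library and a diamond for the day 0 mean. The circles lie right of the squares for most genes, while they overlap for Lss, Insig1, Vegfa, B2m and Nlrc5. The day 0 diamonds lie right of both groups for most cholesterol genes and left of both for Ifit1, Ifit3 and Irf7.

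Targets of NRF2 and metallothioneins were mostly higher, 9 of 13 rising, 1 falling and 3 not called (median 0.51). Srxn1, sulfiredoxin, was at 115, 136 and 122 CPM in Astrocyte and 33.7, 34.7 and 37.1 CPM in Neuron, with an Oligodendrocyte mean of 1055 CPM. Hmox1, the heme oxygenase, was at 87.4, 96.7 and 96.2 CPM against 39.4, 36.96 and 43.6 CPM, and Nqo1, a quinone reductase, at 14.4, 19.3 and 20.2 CPM against 6.55, 6.57 and 7.63 CPM. Gstm1, a glutathione transferase, fell by 0.49. Slc7a11, the cystine transporter, and Cat, catalase, differed by -0.29 and 0.05 and were not called. Slc7a11 had overlapping groups and was called lower under both scaling alternatives and without Neuron 2.

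Targets of nuclear receptors did not move alike. Of 11 glucocorticoid-regulated genes 7 fell, 1 rose and 3 were not called (median -0.45). Sgk1, a salt and glucocorticoid-induced kinase, was at 32.9, 26.5 and 26.4 CPM in Astrocyte and 76.97, 66.5 and 78.5 CPM in Neuron, a difference of -1.34. Tsc22d3 (GILZ) was at 28.6, 27.1 and 28.9 CPM against 42.9, 55.3 and 46.7 CPM, and Fkbp5, a chaperone partner of the receptor, at 13.4, 11.5 and 12.9 CPM against 17.3, 15.8 and 19.6 CPM. Per1, a clock gene with a hormone response element, differed by -0.10 (adjusted p = 0.235) and was called lower under both scaling alternatives and without Neuron 2. The receptor gene Nr3c1 differed by -0.03 (adjusted p = 0.69). Ddit4, the mTOR inhibitor REDD1, was the 1 that rose, by 0.37.

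Of 13 retinoic acid genes 7 were members, of which 3 rose, 3 fell and 1 was not called. Aldh1a1, a retinaldehyde dehydrogenase, was at 6.36, 7.65 and 10.3 CPM in Astrocyte and 0.24, 0.39 and 0.31 CPM in Neuron. Tgm2, transglutaminase 2, was at 8.4, 8.66 and 9.6 CPM against 0.55, 0.75 and 0.68 CPM. Their differences were 2.77 and 2.57. Dhrs3, a retinaldehyde reductase, went the other way at 4.5, 4.96 and 5.4 CPM against 9.21, 13.0 and 12.7 CPM. Rarb, a receptor gene that retinoic acid induces, differed by 0.11 (adjusted p = 0.338).

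Of 11 thyroid hormone genes 7 were members, of which 3 rose, 3 fell and 1 was not called. Hr, a corepressor gene that thyroid hormone induces, was at 40.6, 32.7 and 30.8 CPM in Astrocyte and 9.86, 7.47 and 9.72 CPM in Neuron, a difference of 1.83 with adjusted p = 2.14e-08. In the Oligodendrocyte cultures with added T3 its mean was 167 CPM. Klf9, another hormone-induced gene, differed by -0.14 with adjusted p = 0.231, with an Oligodendrocyte mean of 96.4 CPM. It was called lower under both scaling alternatives and without Neuron 2. Dio2, which makes T3 from its precursor, fell, with 38.3, 38.01 and 32.95 CPM against 61.6, 66.03 and 66.5 CPM.

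Of 10 genes in the BMP and TGF-beta list 5 rose, 3 fell and 2 were not called (median 0.35). All 4 Id genes, inhibitors of helix-loop-helix factors induced by BMP, rose. Id3 was at 32.5, 31.8 and 42.96 CPM in Astrocyte and 11.2, 10.8 and 10.8 CPM in Neuron, and Id2 at 209, 223 and 248.7 CPM against 114, 119 and 109 CPM. Id1 and Id4 differed by 1.00 and 0.53. Smad6, an inhibitor of BMP signalling, rose by 0.98, while Smad7 and Skil, inhibitors of TGF-beta signalling, fell by 0.75 and 0.85.

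Among 10 Notch genes 5 rose and 3 fell, with 3 rising under median-of-ratios scaling (4 falling) and without Astrocyte 1 or Neuron 2. Hey1, a repressor downstream of Notch, was at 137, 134 and 135 CPM in Astrocyte and 47.1, 50.8 and 49.9 CPM in Neuron, opposite to Hes5 and Hes1. Dll3 and Dll1, Notch ligands, fell by 1.04 and 0.65. Among 12 Wnt genes 5 rose and 6 fell. Wnt5a, a ligand, was at 124, 137 and 126 CPM against 50.98, 55.4 and 53.02 CPM, whereas Wnt7b fell by 0.73, and Axin2, a feedback target of beta-catenin, rose by 0.55.

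Matrix genes divided, 5 of 11 rising and 5 falling, Nid1 with the largest fall and Thbs1 with the largest rise. The collagen IV chains Col4a1 and Col4a2, of basement membranes, rose by 1.20 and 1.05, and Col5a1, a fibrillar collagen, by 1.42. Col4a1 was at 51.9, 61.9 and 58.3 CPM in Astrocyte and 23.8, 23.3 and 26.3 CPM in Neuron. The proteoglycan genes Vcan and Ncan fell by 0.57 and 0.49, and Sparc, a matricellular protein, by 0.51. Tnc, tenascin C, had overlapping groups of 12, 16.7 and 17.2 CPM and 21.1, 13.6 and 21.2 CPM and was called lower under both scaling alternatives and without Neuron 2.

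Of 15 voltage-gated and potassium channel genes 7 rose, 2 fell and 6 were not called. Kcns1, a modifier subunit of delayed rectifiers, had the largest difference of the list, at 17.4, 15.5 and 14.3 CPM in Astrocyte and 0.83, 0.92 and 0.85 CPM in Neuron (3.16, adjusted p = 2.56e-11). Kcnk1, a two-pore channel, rose by 1.35 and its relative Kcnk2 fell by 1.05, with 127, 114 and 121 CPM against 229, 273 and 254 CPM. Kcna2, a Shaker-type channel, spread widely in Neuron, 58.6, 19.8 and 46.6 CPM, and was called lower only without Neuron 2. Of 12 synaptic vesicle and SNARE genes 2 rose and 6 fell. Sv2a, a vesicle glycoprotein, fell by 0.69, and Cplx2, complexin 2, rose by 0.40. Of 14 lysosomal genes 5 rose, 2 fell and 7 were not called, and the balance turned under median-of-ratios scaling to 3 rising and 5 falling. Ctsd and Ctsb, cathepsin proteases, each rose by 0.70, and Npc2, a sterol carrier, fell by 0.56.

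Of 12 genes of serine synthesis and the ATF4 stress response 5 rose, 1 fell and 6 were not called (median -0.03). Sesn2, a stress-induced sestrin, rose by 0.54, and Shmt2, of mitochondrial folate metabolism, by 0.38. Atf4 itself differed by -0.07 with adjusted p = 0.633. Under either scaling alternative 4 genes were called lower.

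**Figure D5:**
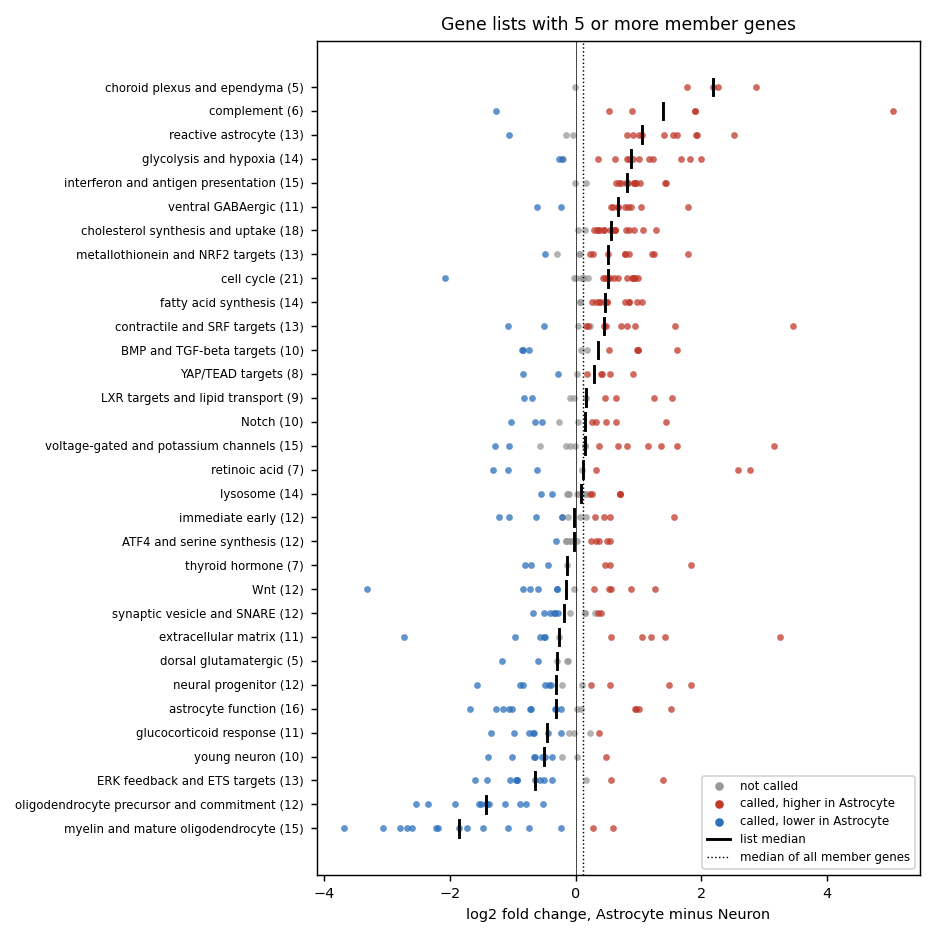
Log2 fold change, Astrocyte minus Neuron (x axis), of every member gene of the 32 lists with 5 or more members, sorted by list median (thick bar). Red points were called higher, blue lower and grey not called, and the dotted line is the median of all members, 0.11. The choroid plexus and ependyma list lies farthest to the right, at 2.18, and the myelin list farthest to the left, at -1.85.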

How the data were processed

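RNA from 11 cultures was sequenced after TruSeq Stranded mRNA preparation on an Illumina HiSeq, per the labels' protocols. The deposited table lists CPM rounded to 2 decimals for 37991 genes of NCBIM37 (mm9), with symbols and coordinates. The submitters' processing notes name bcl2fastq 1.8.4, TopHat2 2.0.8, HTSeq 0.6.1, edgeR 3.2.4, R 3.0.0 and HOMER, in no stated role. The strand setting of the counting and the filters were not given in the sources used here, so overlapping, antisense and near-identical genes are uncertain. Depth was estimated from the step between listed values, which the rounding blurs, and count tests were not run.

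The CPM as deposited were tested with limma 3.58.1 (R 4.3.3) on log2(CPM + 1). The fit held 1 mean per group for all 11 libraries, a mean-variance trend and Benjamini-Hochberg adjustment over the 13342 genes that reached 1 CPM in 2 or more of the 11 libraries. Calls were made below an adjusted p of 0.05, and a fold change is on the log2(CPM + 1) scale. All 11 libraries share 1 estimate of the spread, with 7 residual degrees of freedom. On simulated data for this comparison with 13342 genes, 91% of 100 genes changed 1.5-fold and 100% of 100 genes changed 3-fold were recovered, with 10 false among 201 calls. The simulation drew all libraries around the Neuron means, changed only genes above 10 CPM there and shifted no library's scale. With so few genes changed, its rates do not carry over to the real calls.

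Named genes were the 12 largest called differences in each direction, among genes that averaged 10 CPM or more in either group without overlap, the members of 35 lists, and C3, Acta2, Mbp and Dusp26. The members and lists were chosen with earlier results of these data known. Alternatives were other pseudocounts, filters, scalings, spread estimates and library sets. Each library was also left out in turn. Promoter sequences are RefSeq windows of GRCm38.p6, matched by symbol, and were not converted to mm9. Some genes of the lists and of the largest falls are counted but not reported by name here.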

Additional observations from a re-analysis of the deposited data

How the results depend on the processing

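The 24 genes with the largest differences kept their call and direction in every alternative run, and 71 of 398 named genes changed a call in at least 1 alternative, with none reversed. When each of the 6 Astrocyte and Neuron libraries was left out in turn, the number of calls changed from 8189. It ranged from 7430 without Astrocyte replicate 2 to 8745 without Neuron replicate 2, the cause of which was not tested. Genes called higher ranged from 4923 to 5388, and lower from 2453 to 3357. All calls together numbered 7588 with no filter on low values and 7325 with only the 6 libraries of both groups in the fit, 8105 without the mean-variance trend and 8061 with a pseudocount of 0.1. Median-of-ratios scaling gave 8169 calls (4240 higher and 3929 lower) and quantile normalization 8238 (4027 higher and 4211 lower). With a pseudocount of 5, genes at least 2-fold higher fell from 852 to 377 and those at least 2-fold lower from 394 to 221, since it shrinks the fold of low genes by construction. With a pseudocount of 0.1 there were 1725 genes past 2-fold in both directions. The samples were not paired by replicate number in the main fit, since how cultures were shared is not stated. Deviations of same-numbered libraries correlated at 0.426, -0.097 and -0.342, and those of differently numbered libraries ranged from -0.461 to 0.496. Deviations from the mean of so few libraries depend on each other, so these values cannot decide whether the samples were paired. The fit with the replicate block gave 8152 calls. The cut at 1 CPM left 158 genes just outside the rule, and what depth limits was not tested.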

Other observations

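Gene families outside the fixed lists were collected by symbol after their values were seen, so their counts are descriptions. Over all members 41.0% were called higher and 22.3% lower. Of 10 small heat shock protein genes 5 were members, 4 called higher in Astrocyte and 1 lower. Besides Hspb8, Cryab, the chaperone alpha-B crystallin, was at 142, 164 and 194 CPM in Astrocyte and 38.9, 62.1 and 41.03 CPM in Neuron (log2 difference 1.82). Hspb6 was at 28.8, 30.3 and 27.3 CPM against 5.97, 6.99 and 5.7 CPM, and Hspb11, a ciliary transport protein despite its name, was lower at 8.44, 8.22 and 8.41 CPM against 10.7, 14.7 and 10.9 CPM. Of 27 claudin genes 6 were members, 3 called higher and 3 lower. Cldn2, a claudin of leaky epithelia, was at 4.95, 6.57 and 6.85 CPM against 0.85, 0.88 and 0.94 CPM, and Cldn12 at 83.2, 82.5 and 80.9 CPM against 28.9, 31.7 and 30.8 CPM. Cldn10, an astrocyte claudin, went the other way at 20.8, 22.3 and 21.9 CPM against 77.7, 103 and 81.5 CPM, as did Cldn11. Of 25 dual-specificity phosphatase genes 19 were members, 7 called higher, 5 lower and 7 not called. These counts lie near the shares over all members, and they became 6 higher and 7 lower with quantile normalization. Dusp15 went with Dusp26, at 9.34, 7.66 and 6.99 CPM against 40.2, 37.6 and 41.6 CPM. Dusp14 and Dusp18 went with Dusp4, at 16.6, 17.2 and 17.4 CPM against 4.99, 5.28 and 5.13 CPM and at 86.6, 91.5 and 86.8 CPM against 36.02, 33.8 and 40.02 CPM.

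The genes with the largest differences in CPM, as opposed to fold, were also named after their values were seen. After Gfap, Prdx6, an antioxidant peroxiredoxin, was at 2427, 2901 and 2796 CPM in Astrocyte and 739.6, 1009 and 773 CPM in Neuron. Atp1b2, a sodium pump subunit of glia, was at 2194, 2334 and 2041 CPM against 715, 782 and 765 CPM, and Clu, the secreted chaperone clusterin, at 1059, 1165 and 1212 CPM against 191, 257 and 206 CPM. In the other direction Eef1a1, the translation elongation factor, was at 1944, 2015 and 2076 CPM against 3843, 4452 and 4067 CPM, with a day 0 mean of 4816 CPM. Cst3, the protease inhibitor cystatin C, was at 1419.9, 1339.7 and 1625 CPM against 2634, 4006 and 2915 CPM, Neuron 2 being the highest.

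Long noncoding genes were called in 52.5% of 322 members (66 higher and 103 lower), against 63.8% of 12250 protein-coding members (5156 higher and 2664 lower). Neat1, the RNA of nuclear paraspeckles, was at 62.9, 37.5 and 40.5 CPM in Astrocyte and 15.99, 9.45 and 11.5 CPM in Neuron, with Astrocyte 1 the highest. Gas5, a host gene of small nucleolar RNAs, was at 71.1, 65.4 and 72.96 CPM against 129.9, 174 and 141 CPM, and Snhg12, another host gene, at 5.66, 5.0 and 5.44 CPM against 10.9, 12.1 and 11.8 CPM.

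A gene was at 1 CPM or more in all 3 libraries of one medium and under 0.1 CPM in all 3 of the other for 12 genes, all of them present in Astrocyte, and for 0 genes in the other direction. Lbp, the lipopolysaccharide-binding protein, was at 4.53, 4.85 and 5.23 CPM in Astrocyte and 0.02, 0 and 0.05 CPM in Neuron. Acox2, a peroxisomal oxidase of bile acid synthesis, was at 3.34, 3.98 and 3.8 CPM against 0.04, 0 and 0 CPM. Prokr2, a prokineticin receptor, was at 1.65, 1.77 and 2.06 CPM against 0.04, 0.04 and 0.05 CPM, and Wisp2, a matricellular protein related to Ctgf and Cyr61, at 1.82, 1.45 and 3.85 CPM against 0.02, 0.06 and 0 CPM. In the neuron medium with added T3, the Oligodendrocyte means were 3.77 CPM for Lbp, 4.565 for Acox2, 0.285 for Prokr2 and 0.33 for Wisp2.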
